A study of Homo sapiens with 24 samples.

Results

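MYC-tag and IgG peak lists were compared within HCC827 cells that express METTL7A fused to MYC and FLAG tags, once in parental cells and once in osimertinib-resistant cells. HCC827 is a human lung adenocarcinoma line that depends on an amplified, mutant EGFR, and osimertinib is an inhibitor of mutant EGFR. The 4 groups used here were parental METTL7A-MYC-tag-FLAG cells with IgG, the same cells with the MYC-tag antibody, and both antibodies again in resistant cells carrying the same construct. Parental cells are labelled untreated, and resistant cells were kept in 1 µM osimertinib. All 4 groups overexpress the tagged protein per the labels. The labels do not name the promoter of the construct, nor say whether the lines are single clones. Each group has 2 samples, labelled as biological replicates, and each deposited list combines both. All peaks of these lists were taken, which gave 5602 of the 13347 peaks in the 8 lists of the series. They comprise 2271 MYC-tag and 70 IgG peaks in parental cells, and 3165 MYC-tag and 96 IgG peaks in resistant cells. Peaks give no RNA level, so the lung label was not checked on expression.

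METTL7A (TMT1A in current nomenclature) is a membrane-associated methyltransferase-like protein, known from the endoplasmic reticulum and lipid droplets. In chromatin immunoprecipitation (ChIP-seq) against a tag, the antibody enriches DNA cross-linked to the tagged protein, while an isotype IgG from the same chromatin gives the nonspecific background. The tag's sequence was taken from human MYC, which the antibody may therefore recognise as well. MYC is a transcription factor that, with its partner MAX, recognises the E-box CACGTG. DNA present in many copies, such as an amplified EGFR locus or mitochondrial DNA, gives more reads in every kind of library.

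Height below means the authors' −log10 p of a peak, taken as the lower of the 2 replicates. With both replicates merged, no spread can be given for a list, and library depth is unknown from the files. Heights of separate lists are not on one common scale, so values from MYC-tag and IgG lists are set side by side without a test. Intervals are exact (Clopper-Pearson) 95% binomial intervals, which cover counting error only and treat neighbouring peaks as independent. Coordinates are GRCh37, and genes were placed by rounded bounds, so positions said to lie outside the genes placed may lie in others.

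The replicates of a group were uneven at some positions. At HBB the first and second replicate in the file had heights of 4.63 and 48.8 in the parental IgG list. At the CDK4 start the parental MYC-tag values were 6.76 and 58.3. All 6 mitochondrial peaks of the parental MYC-tag list were higher in the second replicate. The larger replicate was at least 2 times the smaller in 6 of 70 parental IgG peaks (8.57%) and 293 of 2271 MYC-tag peaks (12.9%). In resistant cells the counts were 5 of 96 (5.21%) and 256 of 3165 (8.09%).

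The cell-cycle kinase gene CDK4 had a MYC-tag peak at its start in both cell states and no peak in either METTL7A IgG list. In resistant cells this was the second highest MYC-tag peak (chr12:58145769-58146554), at 26.3 in the first and 36.6 in the second replicate. In parental cells the replicates gave 6.76 and 58.3 there (chr12:58144453-58146608), and the peak did not reach a global irreproducible discovery rate (IDR) of 0.05. Wild-type cells, which lack the tag, also had peaks at this start, with heights of 12.4 (parental) and 13.3 (resistant) for MYC-tag and 8.45 for resistant IgG. The 250 bases before the CDK4 start are shown because they carry 3 copies of the E-box that MYC recognises, in capitals. They come from RefSeq on GRCh38.p14, chr12:57752311-57752560, minus strand.
CDK4: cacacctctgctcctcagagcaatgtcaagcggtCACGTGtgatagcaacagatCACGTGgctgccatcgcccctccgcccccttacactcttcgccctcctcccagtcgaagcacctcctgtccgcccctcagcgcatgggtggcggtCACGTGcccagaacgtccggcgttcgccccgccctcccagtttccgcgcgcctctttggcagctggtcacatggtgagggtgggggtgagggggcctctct
The motif CACGTG reads the same on both strands, and its copies begin 216, 196 and 101 bases before the start. Of 35116 promoters in the same table, 2228 (6.34%) hold it at least once in the 250 bases before the start. A match describes the letters only and shows no binding. The CDK4 promoter was shown for its motif, so the share over all promoters is no test of it. SLC26A10 and SNX16 also had a resistant MYC-tag peak at their starts, and their promoters are not shown.

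IgG peaks were few and low. In parental cells 1 IgG peak of 70 (1.43%) reached a height of 9 in both replicates, against 133 of 2271 MYC-tag peaks (5.86%). In resistant cells 3 of 96 IgG peaks (3.12%) and 98 of 3165 MYC-tag peaks (3.1%) did. At a height of 5 the parental counts were 2 IgG peaks (2.86%) and 840 MYC-tag peaks (37%), and the resistant ones 18 (18.8%) and 1246 (39.4%). At a height of 9 the resistant lists thus held nearly equal shares, unlike the parental ones, while the MYC-tag counts were far larger in both. Median height in parental cells was 3.49 for IgG and 4.76 for MYC-tag. The resistant medians were 3.77 and 4.49. Wild-type IgG lists of the same design held 1444 and 2529 peaks, so the short lists occurred in METTL7A-expressing cells only among these 4 IgG groups.

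**Figure D1:**
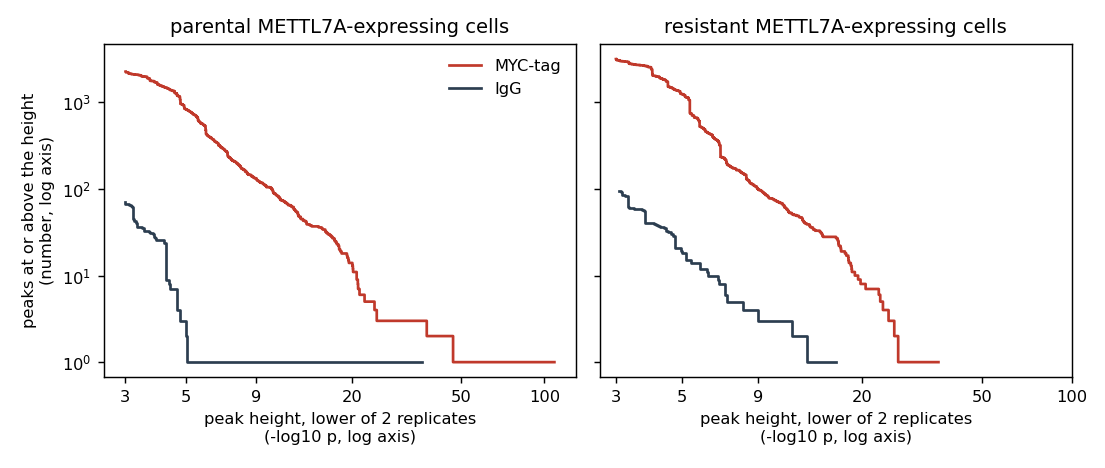
Number of peaks (log axis) at or above each height (−log10 p, lower of 2 replicates, log axis) in parental and resistant METTL7A-expressing cells. The IgG lines start at 70 and 96 peaks, and the MYC-tag lines at 2271 and 3165. At a height of 5 the parental lines stand at 2 IgG and 840 MYC-tag peaks, and the resistant lines at 18 and 1246.

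Many IgG peaks had identical heights. The 70 parental IgG peaks took 33 distinct heights, and 16 of them (22.9%) shared the value 3.22. In the second replicate 30 of the 70 stood at 4.24. The 96 resistant IgG peaks took 48 distinct heights, with 20 (20.8%) at 3.30. Among MYC-tag peaks the most frequent height was shared by 102 of 2271 (4.49%) in parental and 312 of 3165 (9.86%) in resistant cells. Among tied peaks the order within a list is arbitrary.

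IgG peaks were also narrower. Their median width was 469 bp in parental and 407.5 bp in resistant cells, against 692 and 685 bp for MYC-tag. The widest IgG peaks measured 1472 and 1534 bp, and the widest MYC-tag peaks 7860 and 7928 bp. The IgG peaks covered 37.5 and 45.2 kb in all, in 65 and 71 windows of 1 Mb, and the MYC-tag peaks 1859 and 2545 kb, in 776 and 936 windows. IgG peaks were thus scattered nearly 1 to a window, apart from those at 54 to 56 Mb of chromosome 7, called the EGFR region here.

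**Figure D2:**
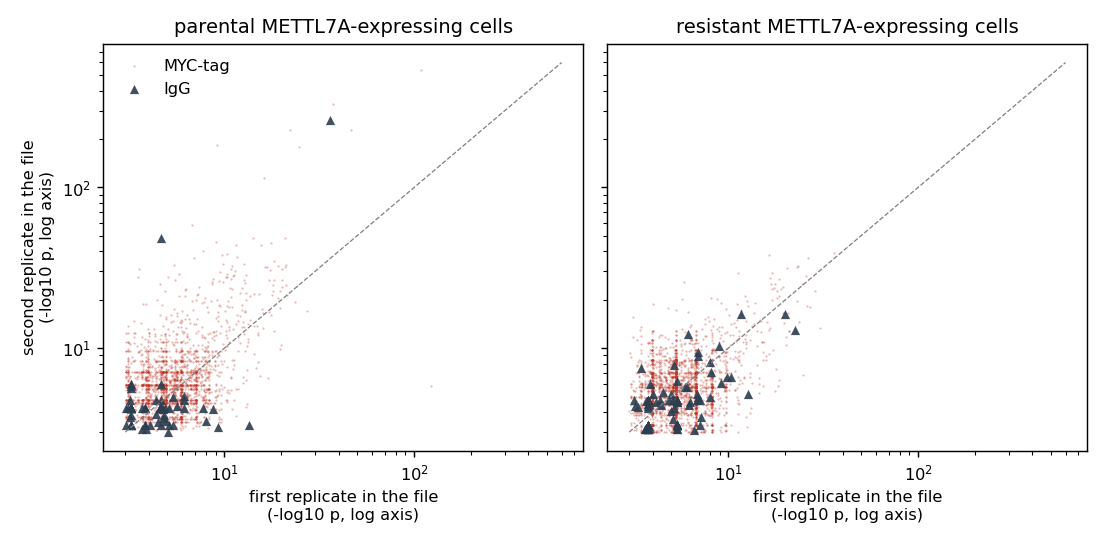
Height in the first against the second replicate of the file (−log10 p, log axes) for every MYC-tag peak (dots) and IgG peak (triangles), with a dashed line of equal height. The parental IgG triangle of HBB (4.63 and 48.8) stands far above the line, and the resistant one (22.6 and 13.04) lies below it.

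HBB had a peak in the IgG lists of both cell states, high in both replicates only in resistant cells. HBB, the beta-globin gene of red blood cells, held the second highest resistant IgG peak (chr11:5246139-5247347, 22.6 and 13.04). In parental IgG its height was low, and only the second replicate was high (chr11:5246136-5247333, 4.63 and 48.8). Ranks 6 and 7 had the same height, so its rank of 5 is arbitrary among them. The parental MYC-tag list had no peak there. The resistant MYC-tag list had one of 5.98 (14.5 and 5.98), with a global IDR of 0.659. These peaks cover the 3′ part of HBB and do not reach its start. HBB was among the 2 positions that the IgG lists of both states had in common, which is 2.86% of the parental and 2.08% of the resistant list.

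Other leading parental IgG peaks were low, at 5.04 in CCNF (cyclin F, chr16:2500887-2501505, 6.13 and 5.04) and 4.996 in TIMP2 (a metalloproteinase inhibitor, chr17:76879889-76880250, 5.39 and 4.996). JAKMIP1, which encodes a microtubule-associated protein, held a peak of 4.63 (chr4:6195183-6195627, 4.63 and 4.76). The CCNF and JAKMIP1 positions had no peak in any of the other 7 lists. A further 5 of the first 10 fell outside the genes placed here and lay between 4.24 and 4.76. In the resistant IgG list the third place was mitochondrial (MT:2768-3166 in MT-RNR2, the large ribosomal RNA, 11.6 and 16.2), and 3 of the next 7 lay within EGFR. The highest of these was chr7:55141509-55142061 (8.97 and 10.2). ADTRP, which encodes a fatty acid ester hydrolase, held the tenth (chr6:11771114-11771751, 9.82 and 6.61).

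The highest MYC-tag peaks were mostly mitochondrial or on chromosome 7. In parental cells 5 of the first 10 were mitochondrial, and the other 5 lay at 54 to 56 Mb of chromosome 7. The mitochondrial peaks covered MT-CO1, a cytochrome oxidase subunit (MT:5971-6801, 109 and 537), MT-RNR1, the small ribosomal RNA (MT:67-1417, 46.6 and 229), and MT-CYB, cytochrome b (MT:14798-15788, 37.4 and 330). The others spanned MT-ATP6 to MT-ND4 (MT:8982-10783, 24.7 and 179), MT-RNR2 and MT-ND1 (MT:1871-4158, 22.3 and 227), and, at rank 124, MT-CO2 (MT:7602-8145, 9.19 and 184). Of 15 mitochondrial genes, 11 thus had a parental MYC-tag peak, and none had one in the parental IgG or the resistant MYC-tag list. In resistant cells the mitochondrial peak in MT-RNR2 came from IgG. No wild-type list had a mitochondrial peak.

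In resistant cells 7 of the first 10 MYC-tag peaks lay at 54 to 56 Mb of chromosome 7, 2 in the CDK4 region and 1 in ADTRP. The highest, within EGFR, measured 35.9 and 39.4 (chr7:55145228-55147646). The start of SLC26A10, a member of an anion transporter family, held the fifth (chr12:58013159-58016992, 23.4 and 32.3). VOPP1, a gene beside EGFR, held 2 more (chr7:55540545-55545821, 28.7 and 22.7, and chr7:55559748-55561281, 19.3 and 23.9). None of these positions but ADTRP had a peak in the IgG list of the same cells. Among all resistant MYC-tag peaks 0.695% overlapped one. At the highest one, in EGFR, the parental IgG list did have a peak (chr7:55145670-55147140, 13.5 and 3.31).

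Few positions were in both lists of a cell state. In parental cells 9 of 70 IgG peaks (12.9%, 6.05 to 23.0) overlapped a MYC-tag peak by at least 1 bp, which was 9 of 2271 MYC-tag peaks (0.396%, 0.181 to 0.751). In resistant cells 22 of 96 IgG peaks did (22.9%, 14.95 to 32.6), matching 22 of 3165 MYC-tag peaks (0.695%, 0.436 to 1.05). The other 61 parental and 74 resistant IgG peaks had no counterpart in MYC-tag lists 32.4 and 33.0 times as long. All 9 shared parental IgG peaks and 10 of the 22 shared resistant ones were reproducible at a global IDR of 0.05, as were 4 and 9 of their MYC-tag partners. For whole lists the reproducible share was 75.7% (IgG) and 6.38% (MYC-tag) for parental cells, against 13.5% and 3.29% for resistant ones.

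Sharing differed by position. In the EGFR region 4 of 4 parental IgG peaks and 15 of 21 resistant ones (71.4%) overlapped a MYC-tag peak. Elsewhere 5 of 66 (7.58%) and 7 of 75 (9.33%) did. The 6 resistant IgG peaks of the region without an overlap lay within 10 kb of a MYC-tag peak, the farthest at 6.07 kb. Elsewhere the median distance from an IgG peak to the next MYC-tag peak was 159.7 kb in parental and 263.0 kb in resistant cells. MYC-tag peaks are dense in the EGFR region, with 165 and 153 of them in 2 Mb, and how much overlap density alone gives was not tested.

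At shared positions the MYC-tag height was the larger number in 8 of 9 parental and 17 of 22 resistant pairs. The highest MYC-tag values at parental shared positions were in EGFR, at 18.4 (18.4 and 34.7) for MYC-tag and 3.31 for IgG, and at a position outside the genes placed (chr7:54182568-54183593 in the MYC-tag list), at 18.2 and 4.38. The EGFR one of these IgG peaks had 13.5 in its other replicate. By MYC-tag height the ADTRP position led in resistant cells, at 19.7 (22.9 and 19.7) and 6.61. Next came a position beyond VOPP1, at 18.3 and 5.16, and one in EGFR, at 16.9 and 5.76. The exceptions included HBB in resistant cells and 3 resistant positions in or before EGFR at 5.24 to 6.04 for MYC-tag and 6.65 to 7.08 for IgG. Outside the EGFR region, the 5 parental shared positions included TIMP2 (5.09 and 4.996), TSPAN9 (a tetraspanin gene, 5.21 and 4.24), 1 on the long arm of chromosome 8 and 1 on chromosome 9. The 7 resistant ones included ADTRP, HBB, SLC26A10 or B4GALNT1 (5.29 and 4.96), a position on chromosome 12 (chr12:125155309-125155689 for IgG, 5.72 and 4.73) and 2 more. These were BAIAP2, a cytoskeletal adaptor gene (4.49 and 3.75), and AMY2B, an amylase gene with close copies beside it (5.72 and 3.77), where reads can be split between copies. The last 4 fall outside the 10 highest pairs and are named for completeness, after their values were seen.

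**Figure D3:**
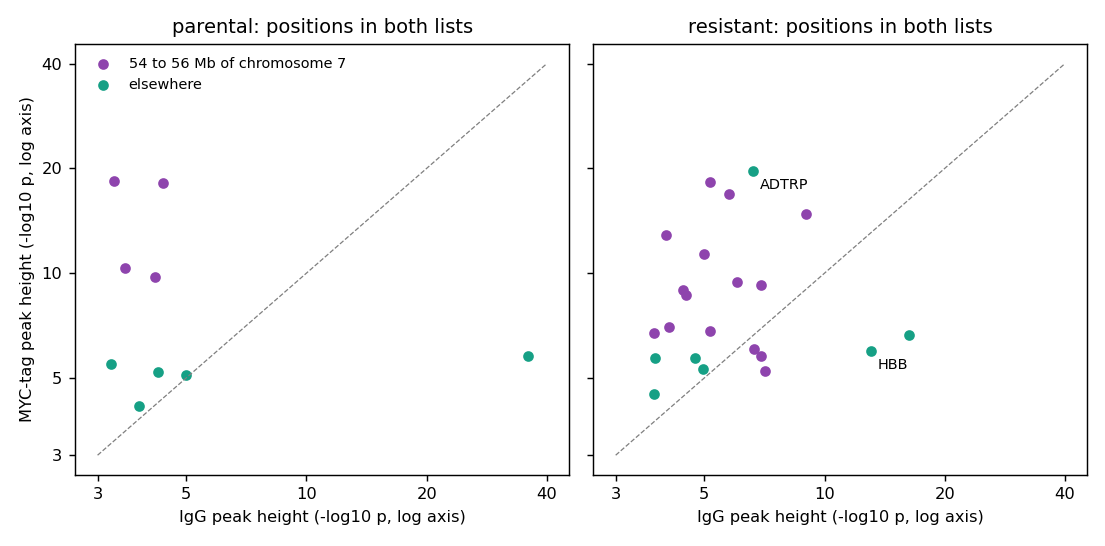
Height of the MYC-tag peak against height of the IgG peak (−log10 p, log axes) at the 9 parental and 22 resistant positions found in both lists, with a dashed line of equal height. HBB in resistant cells lies far below the line, and positions at 54 to 56 Mb of chromosome 7 lie mostly above it.

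The EGFR region itself held a different share of each list. Of all peaks it held 165 of 2271 MYC-tag (7.27%, 6.23 to 8.41) and 4 of 70 IgG (5.71%, 1.58 to 13.99) in parental cells. In resistant cells it held 153 of 3165 MYC-tag (4.83%, 4.11 to 5.64) and 21 of 96 IgG (21.9%, 14.1 to 31.5). Peaks of a list are not replicates, so these intervals do not test the antibodies against each other. Among peaks of height 5 or more the resistant shares were 10.7% and 61.1% (11 of 18 IgG peaks), and among reproducible peaks 66.3% and 61.5% (8 of 13). In parental cells 17.1% of MYC-tag peaks of height 5 or more lay there, and 0 of 2 IgG peaks. Cut to the length of the IgG list by height, the MYC-tag lists had 51 of 70 peaks (72.9%) and 64 of 96 (66.7%) in the region. The direction therefore depends on which peaks are counted. In resistant cells the MYC-tag share minus the IgG share was -17.04 percentage points over whole lists and 4.81 among reproducible peaks. In parental cells it was 1.55 over whole lists, 53.8 among reproducible peaks, and -14.6 for peaks of height 5 or more in the first replicate alone. The IDR limit kept 53 of 70 parental IgG peaks, a list in which 2 reached a height of 5. It kept 145 of 2271 MYC-tag peaks, a list in which 840 did. Reproducible peaks of the 2 parental lists are therefore unlike in height.

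**Figure D4:**
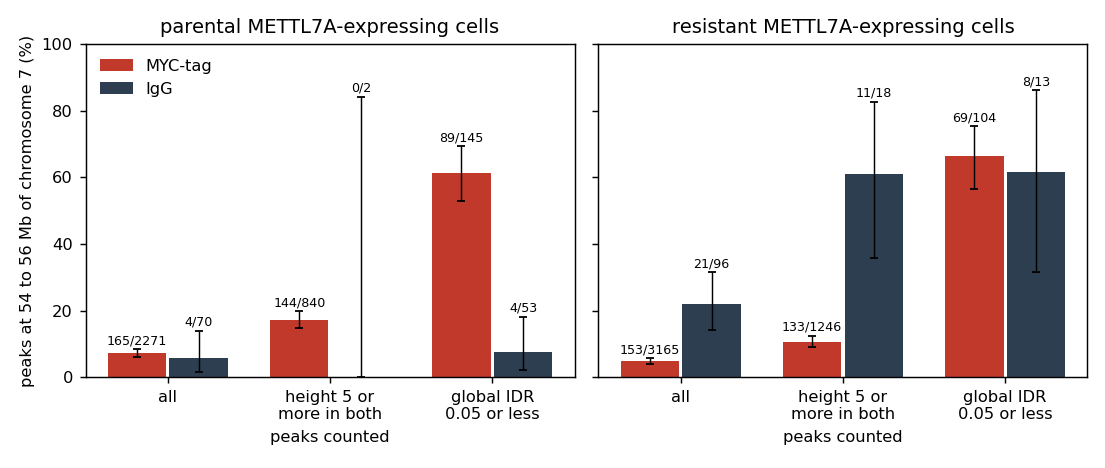
Percentage of MYC-tag and IgG peaks at 54 to 56 Mb of chromosome 7 in all peaks, in peaks of height 5 or more in both replicates and in peaks of global IDR 0.05 or less. Error bars are exact 95% binomial intervals and labels give the counts. In resistant cells IgG is at 21.9% against 4.83% over all peaks, and 61.5% against 66.3% among reproducible ones.

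Within that region the MYC-tag peaks had a similar layout in both states. EGFR itself held 51 of 165 parental and 51 of 153 resistant MYC-tag peaks (30.9% and 33.3%), of which 36 and 25 were reproducible. Between SEC61G, a subunit gene of the protein translocation channel, and EGFR lay 29 and 26, with highest values of 24.2 and 25.6. VOPP1 held 21 and 17, and LANCL2, a lanthionine synthetase-like gene, 4 and 6. EGFR held 3 parental IgG peaks, of height at most 4.17, and 11 resistant ones, at most 8.97. Height is the lower replicate, and in the first replicate the 3 parental peaks had 13.5, 8.04 and 8.69. Between SEC61G and EGFR the resistant IgG list had 5, at most 6.94, and the parental one had 0. Between EGFR and LANCL2 both IgG lists had 0, against 20 and 15 MYC-tag peaks with highest values of 20.8 and 18.4.

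**Figure D5:**
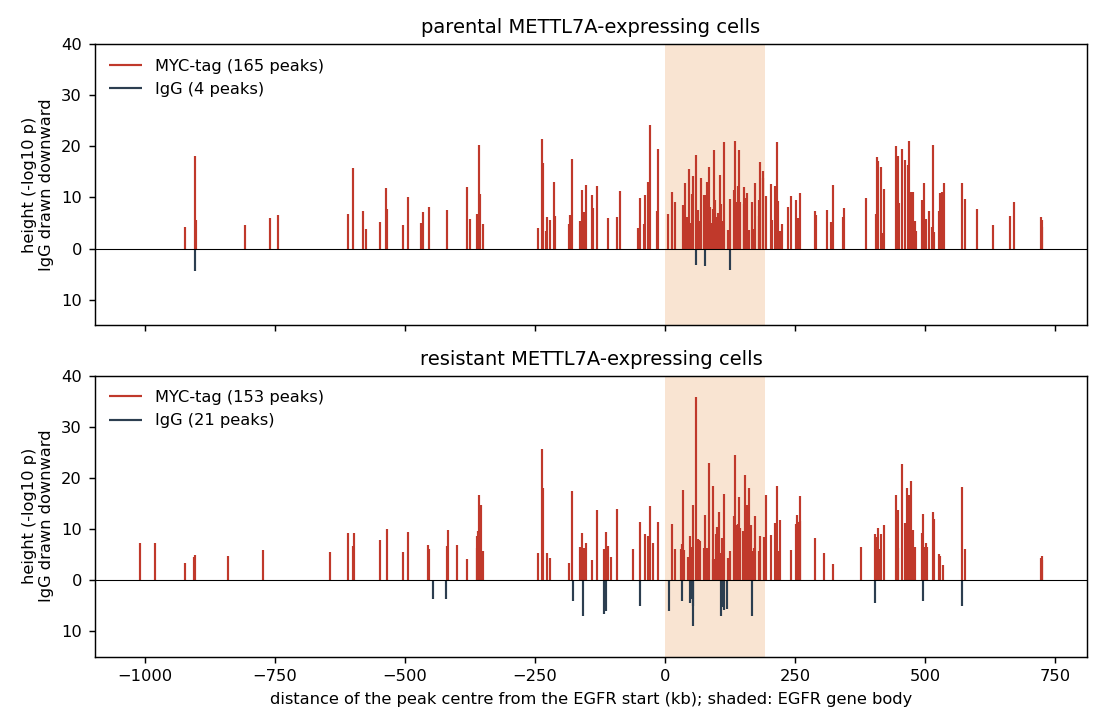
Peak heights (−log10 p) around EGFR by distance of the peak centre from the EGFR start (kb), with MYC-tag drawn upward, IgG downward and the EGFR gene body shaded. The 165 and 153 MYC-tag peaks spread over the whole window, whereas the 4 and 21 IgG peaks stay under a height of 9.

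The strongest MYC-tag positions without a METTL7A IgG peak also lay there. The MYC-tag lists of both states had 451 parental peaks in common with resistant cells (19.9% of 2271), matching 465 resistant peaks (14.7% of 3165). Of the 451, 428 overlapped no METTL7A IgG peak together with their resistant partner, 99 of them in the EGFR region. Over whole MYC-tag lists only 0.396% (parental) and 0.695% (resistant) overlapped an IgG peak of their own state. Lacking an IgG peak was therefore the rule with such short IgG lists and does not set these positions apart. The 5 highest were all on chromosome 7. The first lay between SEC61G and EGFR (chr7:54849558-54850816), at 21.3 and 21.4 in parental and 25.6 and 28.3 in resistant replicates. The second lay in EGFR (chr7:55221527-55222282), at 21.1 and 24.6 and at 24.5 and 25.1. All 4 replicate values of each thus stood above 21. Wild-type IgG lists had no peak at the first position, but had heights of 8.63 (parental) and 10.2 (resistant) at the second. Wild-type MYC-tag lists had peaks at both, at 5.41 (parental) and 12.5 (resistant) and at 3.14 and 11.7. The third lay in VOPP1 (chr7:55540568-55545859), the fourth beyond the EGFR end (chr7:55300803-55303745) and the fifth again between SEC61G and EGFR (chr7:54907103-54907983). The lower of the heights in both states was 19.5, 18.4 and 17.5 at these. At the third, wild-type IgG heights were 8.24 (parental) and 7.86 (resistant), and wild-type MYC-tag heights 5.22 and 8.24. The peak upstream of EGFR at chr7:55057950-55059451 (24.2 and 24.2 in parental cells) was the highest nuclear MYC-tag peak of parental cells, and neither METTL7A IgG list had a peak there.

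Other clusters of MYC-tag peaks held between 0 and 5 IgG peaks. At 57 to 59 Mb of chromosome 12, around CDK4, lay 32 parental and 33 resistant MYC-tag peaks, and 0 and 1 IgG peaks. In resistant cells this was 1.04% of the MYC-tag list and 1.04% of the IgG list, so the shares did not differ. Of 10 genes listed there, 8 had a MYC-tag peak in each state (CDK4, AGAP2, TSPAN31, B4GALNT1, OS9, ARHGEF25, KIF5A and DTX3). In the short METTL7A IgG lists none met the same rule by the rounded bounds. In wild-type cells 4 of the 10 (parental) and 6 (resistant, CDK4 among them) had an IgG peak, and 5 and 7 a MYC-tag peak. The window and its genes were chosen with earlier results of these data known. The share of all genes with a peak was not computed, so these counts are no result about the genes. With METTL7A MYC-tag, B4GALNT1, a ganglioside synthase gene, reached 17.3 in parental (17.3 and 26.7) and 10.5 in resistant cells (10.5 and 12.01). OS9, a gene of endoplasmic reticulum quality control, reached 13.7 and 12.6. AGAP2, a GTPase-activating protein gene, reached 10.3 and 16.96. The single METTL7A IgG peak, in resistant cells (chr12:58019134-58019642, 6.90 and 4.96), was labelled with both SLC26A10 and B4GALNT1. With gene bounds rounded to about 1 kb, whether it lies in B4GALNT1 is unsure. On chromosome 6, at 11 to 12 Mb where ADTRP lies, the MYC-tag lists held 42 and 30 peaks and the IgG lists 0 and 1. The resistant shares were 0.948% (MYC-tag) and 1.04% (IgG). The chromosome 7 arm at 85 to 120 Mb, which carries MET, held 9 and 65 MYC-tag peaks (0.396% and 2.05%) and 1 and 5 IgG peaks (1.43% and 5.21%). At 9 to 11 Mb of chromosome 21, beside the centromere, the MYC-tag lists held 10 and 9 peaks and both IgG lists 0. The interval of 0 of 70 parental IgG peaks reaches 5.13%, which includes the MYC-tag shares of the chromosome 12 (1.41%), 6 (1.85%) and 21 (0.44%) windows, so a list of this length cannot show a difference there.

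Away from chromosome 7, mitochondrial DNA and the chromosome 12 and 6 windows, the 5 highest MYC-tag peaks of each state were taken. Only 93 genes were placed, so how many of these peaks lie in genes is unknown. The highest parental one was at chr21:10622502-10622993 (19.6 and 17.7). Next came a position in HFM1, a meiotic helicase gene (chr1:91852779-91853148, 16.2 and 115), where wild-type MYC-tag heights were 10.2 (parental) and 20.2 (resistant). The third was on the long arm of chromosome 4 (chr4:190472060-190472452, 11.8 and 14.9). In resistant cells another position of that arm led (chr4:190514880-190515815, 22.7 and 12.6). Resistant cells also had a peak at the start of SNX16, an endosomal sorting nexin gene (chr8:82753863-82754405, 12.3 and 14.7), and one in KDM6B, a histone H3K27 demethylase gene (chr17:7744823-7745485, 11.3 and 12.8). SNX16 had a peak in none of the other 7 lists, and KDM6B had 1 in the parental METTL7A MYC-tag list (4.78). None of the 10 positions named by this rule had a METTL7A IgG peak. Of all MYC-tag peaks, 0.396% (parental) and 0.695% (resistant) overlapped an IgG peak of their own state, so this does not set them apart.

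Genes of 5 further lists were searched for peaks. Of 12 receptor and signalling genes linked to osimertinib resistance, MET had a resistant MYC-tag peak (7.21 and 7.04) and none had one in parental MYC-tag or in either IgG list. Of MYC and 9 known targets, MYC and TERT had a parental MYC-tag peak (9.07 and 4.75), and MYC, LDHA and CCND2 a resistant one (7.29, 4.43 and 4.69). Of 8 lung epithelial genes SFTPB, which encodes surfactant protein B, had a MYC-tag peak in parental (4.94) and resistant cells (3.69). Of 6 housekeeping genes GAPDH had one in parental cells (4.01). METTL7A had none, and its relative METTL7B had one in the parental MYC-tag list (4.65 and 6.57). In the METTL7A IgG lists none of the genes in these 5 lists had a peak. Parental wild-type IgG had peaks at TERT (4.75), IGF1R (5.90) and ACTB (4.45), and resistant wild-type IgG at MET (4.43), PIK3CA (3.17) and KRT7 (4.07). Parental wild-type MYC-tag had peaks at MYC (3.39), NCL (4.02), PIK3CA (4.67) and NKX2-1 (3.28). Resistant wild-type MYC-tag had peaks at MET (5.69), CCND2 (3.24), MYC (5.10) and EEF1A1 (4.56). It also had them at the lung genes NKX2-1 (3.66), KRT7 (5.92) and EPCAM (3.85). LDHA, SFTPB, GAPDH and METTL7B had none in the wild-type lists. The share of all genes with a peak was not computed, so these counts stand alone.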

How the data were processed

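Peak lists of GRCh37 were used as the authors deposited them, 1 per group of 2 replicates, in the 20-column layout of the IDR method. Their peak heights and IDR values are −log10 p-values and −log10 IDR, deposited by the authors. Per the submitters' processing notes, tools included MACS2 2.2.7.1, Bowtie2 2.4.2 and SAMtools 1.16, in no stated role. No source used here gives the control library of peak calling or the filters applied. The lists hold no read totals.

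Overlaps (at least 1 bp), shares, medians and intervals were computed in Python 3.11.15 with scipy 1.17.1, and the overlap counting was tested on simulated intervals. No test between antibodies was made, because each list merges its replicates. Named positions were the 10 highest peaks of each list, all or the highest 10 shared pairs, the 5 highest MYC-tag peaks outside chromosome 7, the chromosome 12 and 6 clusters and mitochondrial DNA, and the 5 highest positions of both MYC-tag lists without IgG. Gene names rest on a table of GRCh37 bounds written from general knowledge and rounded to about 1 kb, since no GRCh37 annotation was used. Of its 93 genes, 89 matched a RefSeq GRCh38.p14 gene by chromosome and length (within 3 kb or 20%). VOPP1, NAPSA, KRT7 and KDM6B did not, so their bounds are less sure. A gene counted when a peak lay in it or 2 kb before its start. The members and lists were chosen with earlier results of these data known.

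Alternatives counted peaks by IDR, by other heights and replicates, by other overlaps, and without chromosome 7 or mitochondrial DNA. One position is not reported here.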

Additional observations from a re-analysis of the deposited data

How the results depend on the processing

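No paired analysis was possible because each list merges its 2 replicates and does not say which replicate fills which columns, so neither replicate could be left out of the matching. Of 60 alternative values, 20 stayed within the interval of the main value, or within 1.5 times of a count, and 40 did not. MYC-tag peaks per IgG peak were 32.4 (parental) and 33.0 (resistant). At a global IDR of 0.05 they were 2.74 and 8, at a height of 5 in both replicates 420 and 69.2, in the first replicate 80.8 and 44.7 and in the second 184.9 and 77.2. At a height of 9 the parental value was 133, and without chromosome 7 the resistant one 42.0. IgG peaks with a MYC-tag overlap fell from 9 to 4 and from 22 to 3 among reproducible peaks, to 5 and 7 without chromosome 7, and to 2 and 8 with the MYC-tag list cut to the IgG length, an alternative chosen after seeing the data. The EGFR region's MYC-tag share was 61.4% and 66.3% among reproducible peaks, 17.1% and 10.7% at a height of 5, 72.9% and 66.7% at equal length, and 5.28% and 3.35% at 55 to 56 Mb. The IgG share was 0% (parental, height 5), 61.5% (resistant, reproducible) and 61.1% (resistant, height 5). Median MYC-tag height in the first, the second and the mean of both replicates was 5.27, 5.92 and 5.62 (parental) and 5.31, 5.48 and 5.50 (resistant), and 4.65 in parental cells without chromosome 7. For IgG it was 4.53, 4.24 and 4.27 (parental) and 5.05, 4.63 and 4.33 (resistant). The sign of the difference between antibodies in the EGFR share changed with the peaks counted, as given above. Peak number and height limit the IgG lists, whose depth is unknown.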

Other observations

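The wild-type lists show which of the METTL7A IgG positions also occur without the tagged protein. The parental wild-type IgG list had a peak at HBB (16.2 and 13.1 in the replicates), which ranked 5. The resistant wild-type IgG list and both wild-type MYC-tag lists had no peak at this gene. Over all positions, 5 of 70 parental METTL7A IgG peaks (7.14%, 2.36 to 15.9) overlapped a peak of the parental wild-type IgG list and 15 of 96 resistant ones (15.6%, 9.02 to 24.5) one of the resistant list. Wild-type MYC-tag peaks overlapped 4 of 70 (5.71%) and 19 of 96 (19.8%).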
